A study of Mus musculus with 55 samples.

Results

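The genes described here encode the nuclear subunits of respiratory complex I. They were chosen as the protein-coding genes of the count table whose mouse symbols start with Ndufa, Ndufb, Ndufc, Ndufs or Ndufv followed by a digit, which took 37 of the 43432 genes. The assembly factors named Ndufaf, the acyl carrier protein Ndufab1 and the subunits encoded in mitochondrial DNA fall outside this rule. All 37 passed the filter on low counts, with mean counts per library of 359 or more (lowest in Ndufa4l2).

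Complex I is the entry point of electrons from NADH into the mitochondrial respiratory chain. Its matrix arm passes these electrons from a flavin along iron-sulfur clusters to ubiquinone, and its membrane arm pumps protons. A core shared with bacteria carries out the chemistry, and many accessory subunits around it serve assembly and stability; in white fat, which has few mitochondria beside brown fat, the chain supports fatty acid turnover and differentiation of adipocytes.

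The study profiled mRNA of gonadal white fat in 55 libraries from C57BL/6 mice, all 6 months old. Genotypes were wild type (WT) and 6 heterozygous knock-ins, whose Htt allele is named after its CAG repeat number: Q20, Q80, Q92, Q111, Q140 and Q175. WT had 7 libraries and each other genotype 8, with 4 of each sex except for 3 WT females. All knock-in animals keep 1 wild-type copy of Htt and carry the allele in every tissue, not in fat alone. By the labels, WT was housed with Q20, whereas the remaining knock-ins lived with mice of their own genotype. In comparisons of these with WT or Q20, effects of housing and of the allele cannot be told apart. Q20 carries the knock-in allele with a repeat in the unexpanded range and serves with WT as a control.

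White adipocyte markers were present throughout, with summed levels between 6110 and 61194 CPM (counts scaled to library size). Total counts lay between 35094442 and 51363637 per library. In 2 Q140 libraries, female 1 and male 4, the sex-linked genes went against the label. Markers of epididymis and testis, organs next to male gonadal fat, summed to at least 100 CPM in 14 libraries, all male, among them all 4 Q175 males and no WT male. The numbers in the library names form an unbroken run of 54, with Q20 female 2 apart from it, and the 15 WT and Q175 libraries hold its last places. The names also carry identifiers, whose form differs between these 15 libraries and the others and whose stem is shared within each of the 4 WT and Q175 groups of a sex. The labels explain neither. In Q175 against Q20, in Q20 against WT and in a slope over repeat number that includes Q175, place in this numbering and genotype cannot be told apart. In Q175 against WT, what the stem stands for and genotype cannot be told apart.

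The letters before the transcription start are shown for 4 members, because many nuclear genes of the respiratory chain carry sites for a small set of factors there. Sequences are RefSeq promoters of build GRCm38.p6, 250 bases up to the annotated start, and 32 of the 37 members had an entry. Ndufa2, Ndufa4l2, Ndufb9 and Ndufs1 were among those with none in the table. Capitals mark GCGC followed by any base and TGCGC, a core sequence bound by NRF1, a factor of respiratory chain genes. Ndufa11, Ndufs6 and Ndufa8 are the 3 members with a match that were lower in Q175 than in both controls with the smallest p against Q20. Ndufb2, which holds no match, is the only member called between Q20 and WT. The windows are chr17:56717512-56717761 (plus strand) for Ndufa11, chr13:73328483-73328732 (minus strand) for Ndufs6, chr2:36049339-36049588 (minus strand) for Ndufa8 and chr6:39592315-39592564 (plus strand) for Ndufb2.
Ndufa11: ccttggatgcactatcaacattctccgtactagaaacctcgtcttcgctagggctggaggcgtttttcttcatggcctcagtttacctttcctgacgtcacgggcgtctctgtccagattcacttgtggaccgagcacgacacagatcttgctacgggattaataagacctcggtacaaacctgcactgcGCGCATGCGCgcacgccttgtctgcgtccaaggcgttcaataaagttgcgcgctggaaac
Ndufs6: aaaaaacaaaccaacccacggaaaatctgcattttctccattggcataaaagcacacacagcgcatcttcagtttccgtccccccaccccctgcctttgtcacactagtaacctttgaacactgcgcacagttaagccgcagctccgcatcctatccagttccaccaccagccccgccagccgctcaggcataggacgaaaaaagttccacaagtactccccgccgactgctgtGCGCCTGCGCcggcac
Ndufa8: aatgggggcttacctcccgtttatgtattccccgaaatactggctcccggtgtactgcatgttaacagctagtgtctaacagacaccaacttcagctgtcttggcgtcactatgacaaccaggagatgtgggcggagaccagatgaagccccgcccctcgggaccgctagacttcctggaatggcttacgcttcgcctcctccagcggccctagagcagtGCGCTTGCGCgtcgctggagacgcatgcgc
Ndufb2: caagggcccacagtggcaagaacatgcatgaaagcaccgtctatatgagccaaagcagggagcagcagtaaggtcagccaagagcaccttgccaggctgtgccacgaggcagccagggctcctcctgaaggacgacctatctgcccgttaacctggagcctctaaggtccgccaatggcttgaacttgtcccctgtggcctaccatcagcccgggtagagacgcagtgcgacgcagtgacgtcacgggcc

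Searched on both strands, this NRF1 core occurred in 6 of the 32 members (18.8%), against 4.23% of the 27025 genes with a promoter entry. The other members with a match were Ndufa5, Ndufb4 and Ndufs5. The match began 60 bases before the start in Ndufa11, 16 in Ndufs6 and 30 in Ndufa8. Of the other motifs searched, CCGGAAGT, bound by ETS factors such as GABPA, occurred in 0 of 32 members and 3.23% of genes. AAGATGGCG, bound by YY1, occurred in 0 of 32 members and 0.710% of genes. Only the NRF1 core occurred among the members, and 26 of the 32 members held none of the 3 motifs. A match describes letters only.

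Per unit of transcript length the members spanned a wide range of levels over the 55 libraries. Ndufa4, long counted as a complex I protein and later placed in cytochrome c oxidase (complex IV), had the highest level, with 499.8 ± 91.5 FPKM (fragments per length and depth; SD, n = 55). Ndufb9, a membrane arm subunit that binds the acyl carrier protein, followed at 289 ± 55.5 FPKM and Ndufb8 at 268 ± 56.6 FPKM. These neighbours in the order, Ndufb9 and Ndufb8, differed by less than their spread. The lowest was Ndufa4l2, the paralog of Ndufa4 known to be induced by hypoxia, with 8.77 ± 2.47 FPKM. Ndufa11 stood next to it at 20.6 ± 3.39 FPKM, scaled by an implied length of 2661 nt, the longest of the members. Its place in this order rests on that length, since its mean of 55.6 CPM was above the 31.2 CPM of Ndufb4 and the 34.7 CPM of Ndufb2.

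Levels of most members varied together between libraries. The log2 CPM of a member correlated with the mean of the others at a Pearson r of 0.99 for Ndufb9, 0.98 for Ndufb10 and 0.98 for Ndufa8, the 3 highest. The 3 lowest were Ndufa4l2 at 0.34, Ndufa1 at 0.65 and Ndufb7 at 0.71. These values describe 55 libraries that share genotypes, sexes and library scaling between the genes, and no test was made of them.

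The main question was whether the longest repeat, Q175, changed these genes relative to WT. Of the 37 members, 31 were lower in Q175 than in WT and 0 were higher. The median log2 fold change was -0.54, a level 31.1% lower, against a median of 0.01 over all 21113 genes tested. In bulk tissue, fewer cells of a type and less RNA per cell cannot be told apart. By the same rule, an edgeR adjusted p under 0.05, 10.4% of all genes were called, 7.1% lower and 3.34% higher. The members' changes ran between -0.75 (Ndufa2) and -0.07 (Ndufb2), all 37 below 0.

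**Figure D1:**
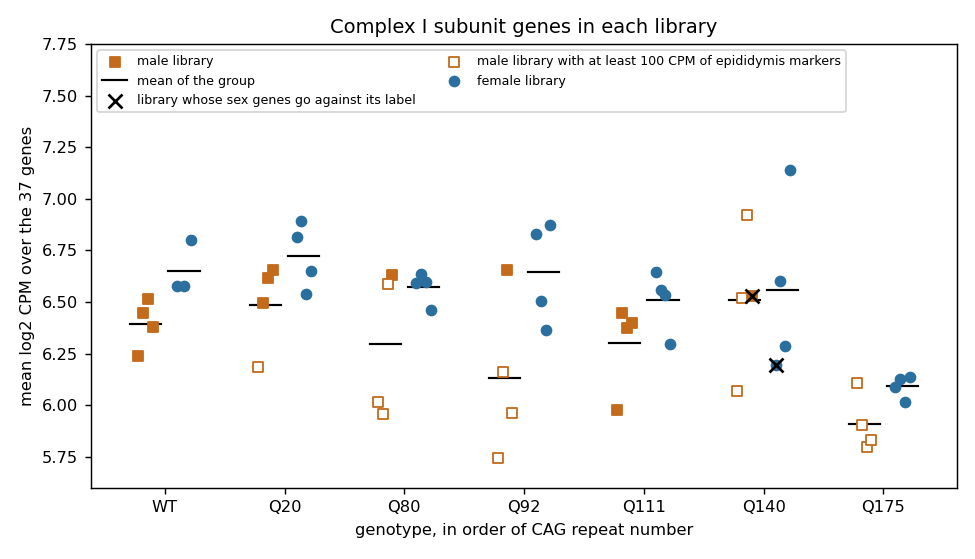
Mean log2 CPM over the 37 genes in each library (vertical axis), by genotype in order of repeat number and by sex, males left of females; lines are group means, open squares are males with at least 100 CPM of epididymis and testis markers, and crosses are the 2 Q140 libraries whose sex genes go against the label. The 8 Q175 libraries lie between 5.80 and 6.13, below all 7 WT libraries, which lie between 6.24 and 6.80.

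The mean log2 CPM over the members was 5.80 in the lowest, 6.05 in the median and 6.13 in the highest Q175 library, against 6.24, 6.52 and 6.80 in WT. The groups did not overlap, as the plot by library shows. Gene by gene, 22 of the 37 members had every Q175 library below every WT library, where 2.84% of all genes did and 0.701% had the reverse.

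Of the 3 core genes of the NADH end, 1 was called. Ndufv2, which carries an iron-sulfur cluster at the NADH end, had 76.3 CPM in the lowest, 88.5 in the median and 99.7 in the highest Q175 library, against 106, 133 and 173 CPM in WT. The groups did not overlap, and Ndufv2 fell by 0.62 ± 0.13 on the log2 scale (SE, edgeR adjusted p = 0.00227). Ndufv1, which binds NADH and the flavin, had 110 to 158 CPM in Q175 and 151 to 236 CPM in WT, overlapping, at log2 -0.42 ± 0.15 (adjusted p = 0.0626). Ndufs1, the large subunit that holds most of the remaining clusters of this module, had 122 to 195 CPM in Q175 and 130 to 272 CPM in WT, at -0.32 ± 0.19 (adjusted p = 0.301).

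Of the nuclear core genes of the ubiquinone module, Ndufs3, Ndufs7 and Ndufs8 fell. Ndufs3, a structural core protein, had 77.5 CPM in the lowest, 93.6 in the median and 104.7 in the highest Q175 library, against 108.7, 129 and 167 CPM in WT. Its groups did not overlap (log2 -0.54 ± 0.15, adjusted p = 0.0171). Ndufs7, which holds the last iron-sulfur cluster before ubiquinone, had 47.9 to 71.9 CPM in Q175 and 65.9 to 104.5 CPM in WT, overlapping, at -0.55 ± 0.17 (adjusted p = 0.0270). Ndufs8, a ferredoxin-like protein that carries clusters to the membrane, was nearest the threshold at -0.36 ± 0.12 (adjusted p = 0.0464), with 30.3 to 39.3 CPM in Q175 and 32.4 to 56.2 CPM in WT. Of the 15 fits that left out 1 library, Ndufs8 lost its call in 13, Ndufs7 in 6 and Ndufs3 in 3.

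**Figure D2:**
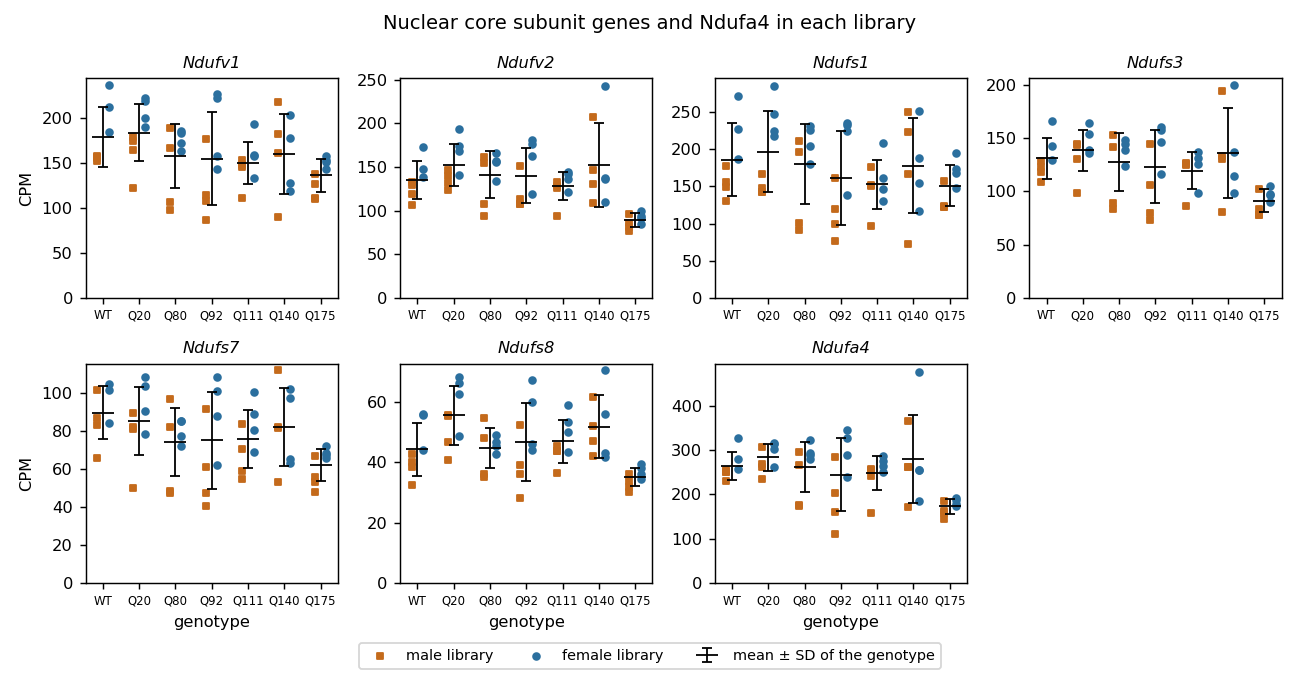
CPM of 6 nuclear core genes and of Ndufa4 in each library (vertical axes from 0), by genotype in order of repeat number, with squares for males and circles for females and with the mean ± SD of each genotype. Ndufv2 is at most 99.7 CPM in Q175 and at least 106 CPM in WT, whereas Ndufs1 overlaps between all genotypes.

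Accessory subunits of the matrix arm fell in 9 of 9 cases. Ndufa2, a small thioredoxin-like subunit, had the smallest p of all members. It had 58.8 CPM in the lowest, 69.6 in the median and 78.1 in the highest Q175 library, against 81.7, 118 and 139 CPM in WT, a difference of -0.75 ± 0.14 (adjusted p = 0.000848). Ndufa5, another subunit of the same arm, had 33.0, 38.3 and 43.3 CPM in Q175, against 44.4, 61.2 and 78.2 CPM in WT (-0.71 ± 0.14, adjusted p = 0.00114). Neither gene overlapped between the groups. Ndufs4, whose loss causes a Leigh-like encephalopathy in mice, changed by -0.72 ± 0.15 (adjusted p = 0.00182), and the smallest change of this role was Ndufa6 at -0.37 ± 0.10.

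Accessory subunits of the membrane arm were lower in 8 of 9 cases in the proximal part and 8 of 10 in the distal part. Ndufa3, in the proximal part, had 46.4 CPM in the lowest, 54.3 in the median and 59.9 in the highest Q175 library, against 64.2, 85.7 and 100.3 CPM in WT (-0.70 ± 0.13, adjusted p = 0.00091). Ndufb7, a disulfide-bonded subunit on the intermembrane face, had 43.6, 52.0 and 58.2 CPM in Q175, against 59.1, 85.4 and 98.6 CPM in WT (-0.71 ± 0.14, adjusted p = 0.00136). The Q175 libraries lay below all WT libraries for both genes. The uncalled genes were Ndufa10, a nucleoside kinase-like subunit, at -0.50 ± 0.18 (adjusted p = 0.0711), Ndufb6 at -0.48 ± 0.17 (adjusted p = 0.0541) and Ndufb2.

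Ndufb2, a small distal subunit, had 24.8 CPM in the lowest, 27.7 in the median and 31.7 in the highest Q175 library, against 23.7, 26.7 and 38.9 CPM in WT. The Q175 values lay inside the WT range, and the difference was -0.07 ± 0.11 (adjusted p = 0.754). Of the pair outside complex I, Ndufa4 fell by 0.63 ± 0.16 (adjusted p = 0.00799), with 145 to 191 CPM in Q175 and 230.4 to 327 CPM in WT. Its paralog Ndufa4l2 had 6.09 to 9.57 CPM in Q175 and 6.51 to 14.1 CPM in WT, at -0.11 ± 0.22 (adjusted p = 0.828).

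**Figure D3:**
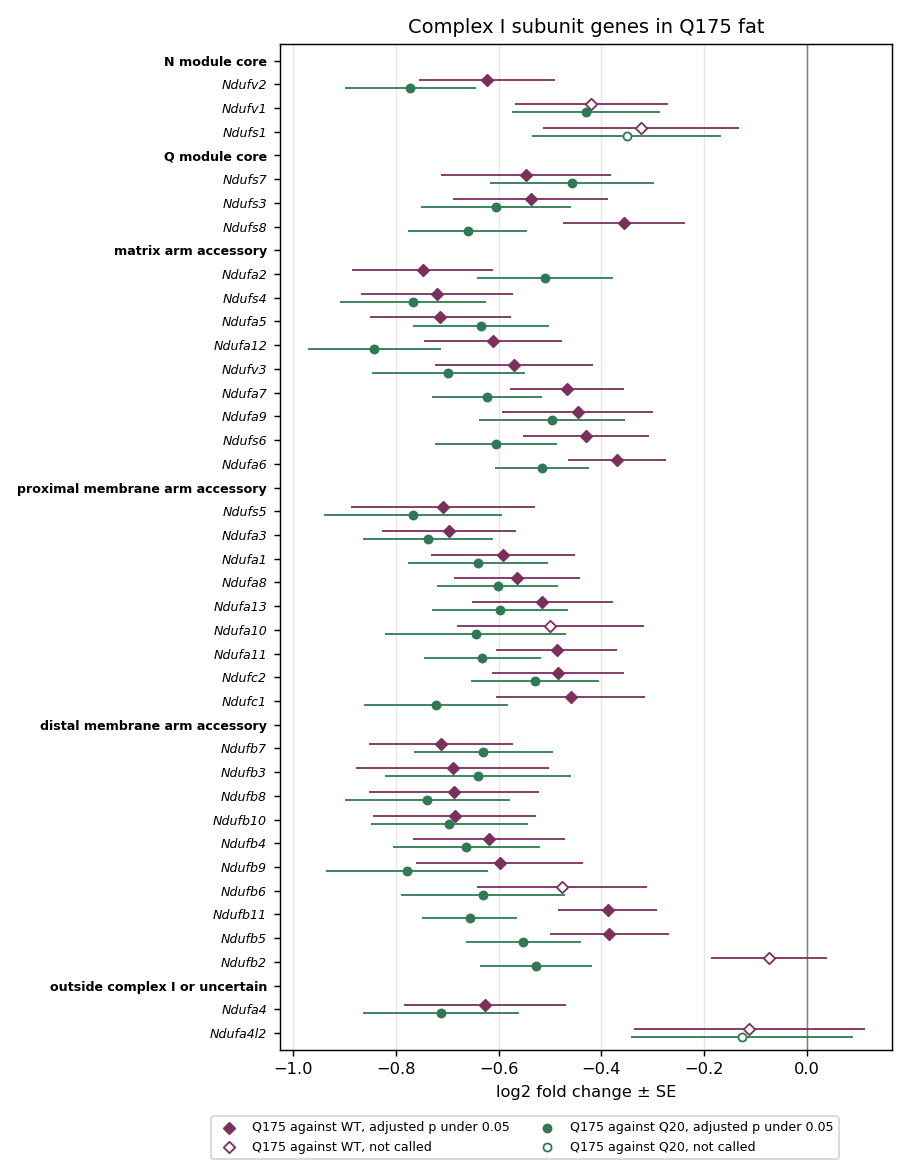
Log2 fold change ± SE of 36 members (horizontal axis) in Q175 against WT (diamonds) and Q175 against Q20 (circles), grouped by place in the complex; filled symbols have an edgeR adjusted p under 0.05. Every point lies at -0.32 or lower, except those of Ndufb2 and Ndufa4l2 against WT and of Ndufa4l2 against Q20.

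The count of members called in Q175 against WT depended on how transcript length and a code in the library names were handled. The members' transcripts are short, with a median of 729 nt as implied by the deposited tables, against 2248 nt over all genes tested. Genes called lower in Q175 against WT had a median of 1385 nt and those called higher 3947 nt. With each library's trend over length removed, edgeR called 3 members when length was the longest annotated transcript, 6 when it was the length implied by the tables and 17 when that trend was fitted robustly. The members' median was -0.57, -0.55 and -0.42 in these fits, against -0.14, -0.15 and -0.03 over all genes. Of all genes, these fits called 4.84%, 3.70% and 6.93%. With the L code of the library names as a factor, 9 members and 1.98% of all genes were called. The labels do not explain this code, and 2 pairs of libraries share both code and index, so a code need not stand for a single lane.

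Tissue markers also differed between Q175 and WT fat. None of 10 white adipocyte markers was called (median log2 -0.29), while their summed level was 25874 to 41593 CPM in Q175 and 40241 to 54906 CPM in WT. Macrophage markers were higher in 5 of 9 cases (sums of 1168 to 1372 CPM in Q175 and 478 to 1431 CPM in WT) and progenitor markers in 5 of 7 (2226 to 2837 CPM in Q175 and 1132 to 2651 CPM in WT). Of the brown and beige, endothelial, skeletal muscle, mammary and exocrine pancreas markers none was called. The part of these cell types in the result was not tested.

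Of the epididymis and testis markers 2 of 10 were called higher, and their sum ran between 0.489 and 2986 CPM in Q175 and between 0.212 and 26.2 CPM in WT. In females alone they were at most 5.22 CPM in Q175. In a fit of female libraries the members' median was -0.55, against -0.0005 over all genes, and 24 members and 7.43% of all genes were called. Without the 14 high libraries and the 2 Q140 libraries the median was -0.49, against -0.02 over all genes, and 27 members and 11.7% of all genes were called. This fit held no Q175 male and used additive terms for genotype and sex, so for Q175 it is not separate from the female fit.

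The change did not differ detectably by sex. All Q175 males and no WT male had at least 100 CPM of epididymis and testis markers. In males this difference and genotype cannot be told apart. The median was -0.56 in females and -0.51 in males, and 36 of 37 members were negative in each. The test of the difference between the sexes called 0 members in edgeR, with 0 at an unadjusted p under 0.05 and a smallest p of 0.109, where 0.0284% of genes were called. DESeq2 and voom also called 0. Within the fit of all libraries, 0 members were called in females and 2 in males, with 33 and 26 at an unadjusted p under 0.05. Over all 21113 genes tested, 2716 in females and 4036 in males were at an unadjusted p under 0.05.

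Against Q20, the other control, 35 of the 37 members were lower in Q175 and 0 were higher, with a median of -0.63 against 0.01 over all genes. Of all genes, 14.2% were called in this comparison, 9.7% lower and 4.54% higher. Q175 enters both comparisons, so that they are not independent. The uncalled members were Ndufs1 (-0.35 ± 0.18, adjusted p = 0.218) and Ndufa4l2 (-0.13 ± 0.22, adjusted p = 0.792). No Q175 library overlapped Q20 in 21 members, where 3.56% of all genes were lower and 1.19% higher without overlap.

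The smallest p belonged to Ndufb11, an X-linked distal subunit, with 74.2 CPM in the lowest, 85.2 in the median and 91.3 in the highest Q175 library, against 106, 135 and 149.9 CPM in Q20 (-0.66 ± 0.09, adjusted p = 7.32e-06). Ndufa12, a subunit that joins the matrix arm late in assembly, had 47.5, 54.1 and 59.2 CPM in Q175, against 81.7, 96.5 and 113 CPM in Q20. That is the largest difference of any member, -0.84 ± 0.13 (adjusted p = 2.54e-05). Neither gene overlapped between the groups.

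Among the core genes, Ndufv2 was at -0.77 ± 0.13 (adjusted p = 6.11e-05) and Ndufs8 at -0.66 ± 0.12 (adjusted p = 0.000119). Ndufs3 was at -0.60 ± 0.15 and Ndufa4 at -0.71 ± 0.15, both called. Ndufv1 (-0.43 ± 0.14, adjusted p = 0.0374) and Ndufs7 (-0.46 ± 0.16, adjusted p = 0.0476) were nearest the threshold, and of 16 fits without 1 library they lost the call in 12 and 13. Ndufa7, a matrix arm accessory subunit, was at -0.62 ± 0.11 (adjusted p = 9.61e-05).

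Ndufb2 was at -0.53 ± 0.11 against Q20 (adjusted p = 0.000669), with 24.8 to 31.7 CPM in Q175 and 34.2 to 49.4 CPM in Q20, without overlap. With the length trend removed, 10 members were called against Q20 with the longest annotated transcript, 4 with the implied length and 24 with the robust fit. Of all genes, these fits called 4.67%, 2.42% and 6.47%. The plot of calls by setting shows these counts beside the others. Genes called lower against Q20 had a median length of 1278 nt and those called higher 5055 nt.

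Tissue markers were set beside this comparison too. White adipocyte markers were called in 0 of 10 cases (median log2 -0.39), with sums of 25874 to 41593 CPM in Q175 and 25365 to 59237 CPM in Q20. Markers called higher in Q175 were 2 of 7 for progenitors, 1 of 9 for macrophages, 1 of 4 for endothelium, 1 of 8 for brown and beige fat, 1 of 10 for epididymis and testis and 2 of 5 for exocrine pancreas. Progenitor sums were 2226 to 2837 CPM in Q175 and 1872 to 3018 CPM in Q20, and pancreas sums 0.0262 to 106 CPM in Q175 and 0 to 0.247 CPM in Q20. No muscle or mammary marker was called. The part of these cell types in the result was not tested.

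**Figure D4:**
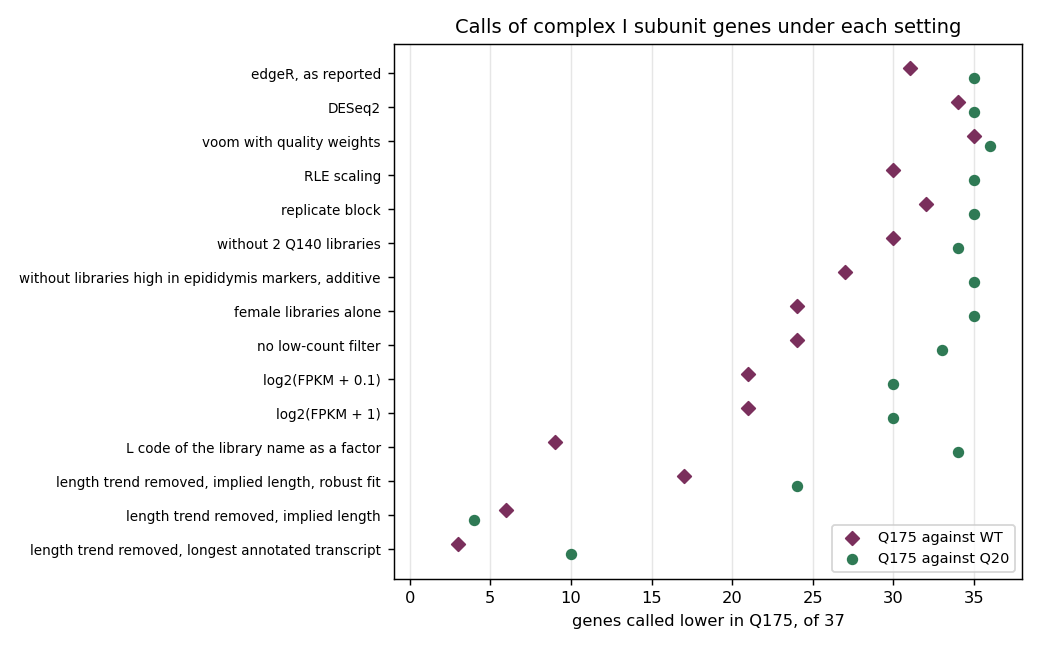
Number of the 37 members called lower in Q175 (horizontal axis) under each setting (rows), against WT (diamonds) and against Q20 (circles). The counts of 31 and 35 drop to 3 and 10, 6 and 4, or 17 and 24 in the 3 fits that remove each library's trend over transcript length.

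The partner genes of the members were set beside them from lists. The 7 mitochondrially encoded subunits and Ndufab1 were called lower in 7 of 8 cases against WT (median -0.70) and in 2 of 8 against Q20 (median -0.46). All 8 had changes below 0 in both comparisons. mt-Nd1, which forms the junction of the arms, had 3586 to 4839 CPM in Q175 and 4594 to 9667 CPM in WT (-0.87 ± 0.18, adjusted p = 0.00165). The share of all counts from mitochondrial DNA was 6.24% to 8.73% in Q175 and 7.19% to 13.8% in WT. The difference of the means was -3.67 percentage points (two-sided exact permutation test over the libraries, p = 0.0028).

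Assembly factors were called lower in 3 of 16 tested cases against WT (median -0.27) and 9 of 16 against Q20 (median -0.33). All 16 had changes below 0 in both comparisons. Ndufaf5, a hydroxylase of Ndufs7, was at -0.41 ± 0.13 (adjusted p = 0.0331) against WT and -0.48 ± 0.12 (adjusted p = 0.00607) against Q20. Foxred1, which aids mid-stage assembly, was at -0.38 ± 0.11 (adjusted p = 0.0247) against WT and -0.32 ± 0.11 (adjusted p = 0.0455) against Q20.

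The other complexes of the chain moved in the same direction. Every gene listed for complexes II to V had a change below 0 in both comparisons. Against WT, genes called lower were 2 of 4 in complex II (median -0.47), 4 of 9 in complex III (-0.51), 10 of 10 in complex IV (-0.65) and 10 of 15 in complex V (-0.46). Against Q20 the counts were 3 of 4 (-0.50), 9 of 9 (-0.66), 10 of 10 (-0.72) and 13 of 15 (-0.67). Cytosolic ribosomal protein genes have equally short transcripts, with a median of 730 nt. They were called lower in 16 of 80 cases against WT (median -0.26) and 56 of 80 against Q20 (median -0.39). Changes were below 0 in 78 of the 80 against WT and in 77 against Q20.

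Among 12 regulators of mitochondrial gene expression, 2 were called lower and 1 higher against WT. Esrra, a nuclear receptor that drives oxidative genes, had 22.7 to 33.7 CPM in Q175 and 28.1 to 43.3 CPM in WT (-0.43 ± 0.12, adjusted p = 0.0165). Gabpb1, the partner subunit of GABPA, was at -0.23 ± 0.07 (adjusted p = 0.0368). Gabpa was higher, at 0.27 ± 0.09 (adjusted p = 0.0488) against WT and 0.29 ± 0.09 (adjusted p = 0.0191) against Q20, where it was the only regulator called. Nrf1 was at -0.05 ± 0.06 against WT (adjusted p = 0.677) and Ppargc1a, a coactivator of these factors, at -0.08 ± 0.31 (adjusted p = 0.939).

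Between Q20 and WT, 1 of 37 members was called, where 0.753% of all genes were, 0.403% lower and 0.35% higher. Ndufb2 had 34.2 CPM in the lowest, 40.3 in the median and 49.4 in the highest Q20 library, against 23.7, 26.7 and 38.9 CPM in WT. The groups overlapped, and Ndufb2 was higher in Q20 by 0.45 ± 0.11 (adjusted p = 0.0359). The call ended in 10 of the 15 fits without 1 library, with the L code, with no low-count filter, in females alone and in each of the 3 fits on length. The core genes named above and Ndufa4 lay between -0.09 and 0.31 and Ndufa4l2 at 0.01 on the log2 scale, none of them called.

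The intermediate repeat lengths were set against Q20. edgeR called 0 of 37 members in Q80, Q92, Q111 and Q140, and the counts at an unadjusted p under 0.05 were 2, 4, 5 and 0. Over all 21113 genes tested, the counts at an unadjusted p under 0.05 were 1681, 3795, 1466 and 2177. Among all genes, 0% were called in Q80, Q111 and Q140 and 6.11% in Q92, with 0.208% lower and 5.91% higher. The members' median was -0.15 in Q80 (0.03 over all genes), -0.20 in Q92 (0.04), -0.21 in Q111 (-0.0007) and -0.03 in Q140 (0.04). DESeq2 called 0 in each, and voom with quality weights called 21 in Q92 and 3 in Q111, where it called 34.0% and 1.91% of all genes. In Q92 the median was -0.04 without the libraries high in epididymis markers, and 3 members were called without Q92 male 3.

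Library by library, Ndufv2 averaged 135 ± 21.5 CPM in WT (SD, n = 7), 152 ± 23.7 CPM in Q20 and 141 ± 27.0 CPM in Q80 (n = 8 each). It averaged 139.9 ± 31.3 CPM in Q92, 128 ± 15.7 CPM in Q111, 152 ± 47.7 CPM in Q140 and 88.7 ± 8.03 CPM in Q175. Ndufb11 averaged 109 ± 11.3 CPM in WT, 132 ± 16.9 CPM in Q20, 117 ± 11.7 CPM in Q80 and 117 ± 22.0 CPM in Q92. It averaged 116 ± 13.7 CPM in Q111, 132 ± 23.8 CPM in Q140 and 83.7 ± 6.05 CPM in Q175. For these genes, named for a small p in Q175 against Q20, neighbouring genotypes among Q20 to Q140 differed by less than the larger SD of each pair. Their Q175 means were the lowest. On FPKM that did not hold for every member: Ndufs1 averaged 65.7 ± 7.88 FPKM in Q175, 62.1 ± 17.3 in Q92 and 60.9 ± 9.52 in Q111. This exception was not seen on counts, where Ndufs1 was at log2 -0.35 in Q175 against Q20. The lowest core gene of the NADH end was at -0.33 in Q111 and -0.31 in Q92 against Q20. Single libraries also overlapped, since the members' mean log2 CPM was 5.74 in Q92 male 1 and 5.80 in the lowest Q175 library.

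A slope of log2 level on repeat number over Q20 to Q175 was below 0 for all 37 members and called for 31. The median was -0.30 per 100 repeats, and 8.32% of all genes were called (5.66% lower and 2.65% higher). Ndufa12 had -0.42 ± 0.08 (adjusted p = 0.000832), Ndufv2 -0.38 ± 0.08 (adjusted p = 0.0017), Ndufb11 -0.30 ± 0.05 (adjusted p = 0.000724) and Ndufa7 -0.29 ± 0.06 (adjusted p = 0.00331) per 100 repeats. The uncalled genes were Ndufa2, Ndufb3, Ndufs1, Ndufs7, Ndufv1 and Ndufa4l2. Q175 alone among these genotypes holds last places in the library numbering. Over Q20 to Q140 the slope was called for 0 of 37 members in edgeR (0 at an unadjusted p under 0.05, and 0 in DESeq2), with a median of -0.07, where 0.00474% of genes were called. The slope to Q175 was called in 0, 0 and 5 members in the 3 fits on length, in the order given above. Those fits called 0.578%, 0.355% and 1.94% of all genes. On log2 FPKM it was called in 16 or 17 members, where 10.7% or 11.1% of all genes were called. Without Q175 male 3, Q20 female 2 or Q20 male 4 it was called in 20.

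Male fat had lower levels than female fat for most members. Averaged over the 7 genotypes, 31 of the 37 were called lower in males and 0 higher, with a median of -0.24 against 0.06 over all genes. Of all genes, 46.3% were called between the sexes, 18.3% lower and 27.9% higher.

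Ndufa11, a transmembrane accessory subunit, had the smallest p. It had 33.8 CPM in the lowest, 51.1 in the median and 77.9 in the highest male library, against 37.2, 57.8 and 89.5 CPM in females (-0.28 ± 0.06, adjusted p = 0.000263). Ndufs1 had 72.0, 149 and 250.1 CPM in males, against 118, 205 and 285 CPM in females, the largest difference at -0.45 ± 0.10 (adjusted p = 0.000282). Both genes overlapped widely between the sexes. Ndufs5, a disulfide-bonded proximal subunit, was at -0.41 ± 0.09 (adjusted p = 0.000489), and Ndufb5 at -0.26 ± 0.06 (adjusted p = 0.000488).

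The 6 core genes named above were lower in males, between -0.45 (Ndufs1) and -0.22 (Ndufs3), and Ndufa4 was at -0.28 ± 0.08. The uncalled members were Ndufa2 (-0.16 ± 0.07, adjusted p = 0.0601), Ndufb11 (-0.10 ± 0.05), Ndufb7 (-0.10 ± 0.07), Ndufv3 (-0.07 ± 0.08), Ndufb8 (0.04 ± 0.09) and Ndufa4l2 (0.09 ± 0.12). The mitochondrially encoded subunits with Ndufab1 were lower in males in 8 of 8 cases (median -0.39).

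**Figure D5:**
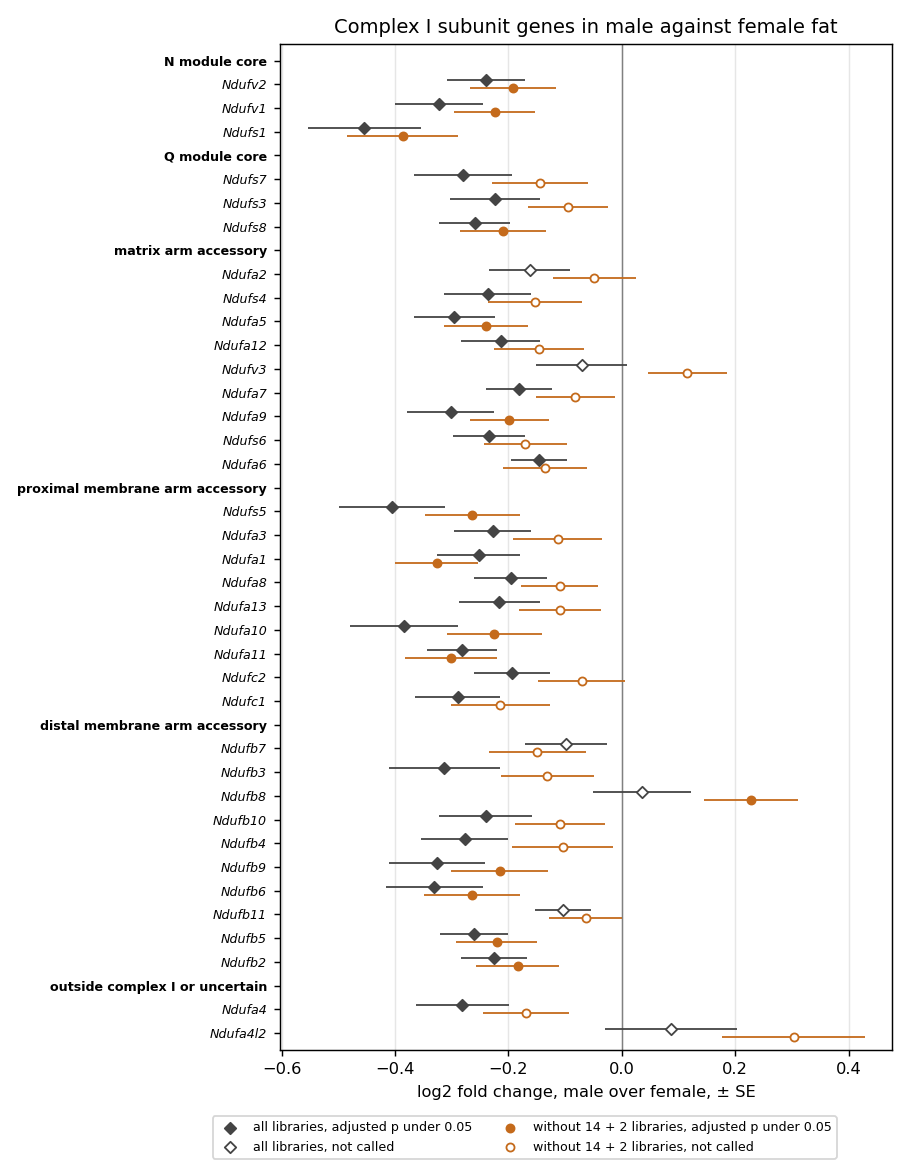
Log2 fold change ± SE, male over female (horizontal axis), of 36 members with all 55 libraries (diamonds) and without the 14 male libraries high in epididymis markers and the 2 Q140 libraries (circles), grouped by place in the complex; filled symbols have an edgeR adjusted p under 0.05. The smaller fit has additive terms for genotype and sex, whereas the larger averages the sex difference over the genotypes. Ndufs1 lies lowest in both fits, at -0.45 and -0.39, and Ndufb8 is filled on the right of 0 in the smaller fit, at 0.23.

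Markers of neighbouring tissues differed between the sexes too. Of the epididymis and testis markers 7 of 10 were called higher in males and 1 lower, with sums between 0.332 and 26266 CPM in males and between 0.212 and 18.5 CPM in females. The 18.5 CPM belong to Q140 female 1, whose sex-linked genes went against the label, and the next female had 5.22 CPM. Skeletal muscle markers were called lower in males in 6 of 6 cases, with sums of 3.40 to 5450 CPM in males and 4.48 to 6835 CPM in females and medians of 25.2 and 28.1 CPM. Brown and beige markers were called lower in 6 of 8 cases, white adipocyte markers in 2 of 10 and progenitor markers in 2 of 7. White adipocyte sums were 6110 to 59237 CPM in males and 27770 to 61194 CPM in females. The female minimum was again Q140 female 1, and the next was 29126 CPM. The mammary list (Krt8, Krt14, Krt18, Csn3 and Wap) was called higher in males in 3 of 4 tested cases (median log2 2.77). Its sums were 2.99 to 689 CPM in males and 3.12 to 249 CPM in females. Q140 male 1 held the highest sum, 689 CPM, beside 26266 CPM of epididymis and testis markers. Q80 male 1 followed in both, at 374 and 17627 CPM. The 249 CPM belong to Q140 female 1, and the next female had 31.2 CPM. The source of these transcripts was not tested. Macrophage markers were higher in 2 of 9 cases, endothelial markers in 1 of 4 and pancreas markers in 1 of 5. Without the libraries high in epididymis markers and the 2 Q140 libraries, 14 members were lower and 1, Ndufb8 (0.23 ± 0.08, adjusted p = 0.0313), was higher in males. In that fit 34.7% of all genes were called. The part of the other cell types in the result was not tested.

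The 2 deposited tables together give the transcript length that each value was scaled by, and this length varied between libraries. It varied by a coefficient of variation of at least 1% in 11 of the 37 members. Ndufv3, a matrix arm subunit with a short and a long isoform, varied most and was singled out after its values were seen. Its length averaged 647 ± 21.3 nt in males (n = 28) and 683 ± 26.5 nt in females (SD, n = 27), with overlapping ranges of 617 to 688 nt in males and 627 to 758 nt in females. It is a description, with no test. Ndufv3 was at -0.07 ± 0.08 between males and females on counts, and at 0.11 on log2(FPKM + 0.1).

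The deposited counts are estimates and need not be whole. They were not whole in 100% of libraries for Ndufb4, Ndufb6, Ndufs1 and Ndufs5, in 98.2% for Ndufs3, in 96.4% for Ndufb11, in 94.5% for Ndufa12 and in 90.9% for Ndufa13. The shares were 76.4% for Ndufb5, 69.1% for Ndufb2 and 67.3% for Ndufb8. The tables do not show how reads were shared out or with which genes, so these levels are uncertain to an extent that was not tested.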

How the data were processed

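Messenger RNA was profiled in 55 libraries. CASAVA 1.8.2 was used, per the submitters' processing notes. Which aligner, counter and build were used, and whether counting used strand, is not given in the sources used here. The authors deposited estimated counts per gene, of which 33.7% of nonzero values were not whole (tolerance 0.001) and which were rounded here, and FPKM values of the same libraries. Gene IDs were matched to GENCODE M21 (42548 of 43432). Counts were fitted with edgeR 4.0.16 (R 4.3.3): TMM scaling, a low-count filter over the 14 genotype and sex groups leaving 21113 genes, robust quasi-likelihood tests, contrasts averaged over the sexes and Benjamini-Hochberg adjusted p under 0.05. Slopes are per 100 repeats.

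Alternatives were RLE scaling, no filter, DESeq2 1.42.0, voom (limma 3.58.1), limma on log2(FPKM + 0.1 or + 1), which understates changes of low genes, the L code of the library names as a factor, a replicate block, subsets of libraries, a length trend over the longest annotated transcript, and 55 fits each without 1 library, which kept the gene set and dispersion trend. The fit without the libraries high in epididymis markers used additive terms for genotype and sex, with the same sex difference in every genotype. Of the length fits, those on the implied length, by least squares and by a robust fit, were chosen after seeing the data. In each library the length fits remove a trend with a spline of 4 degrees of freedom, or a local fit in the robust one. The tests were tested on simulated data. Members and lists were chosen with earlier results of these data known. Per comparison the text names the 4 called members with the smallest p in each direction, the uncalled members where most are called, nuclear core genes, Ndufa4 and Ndufa4l2. Outside this rule, Ndufs4 and Ndufa6 were named in Q175 against WT and Ndufb2 in Q175 against Q20. Counts and medians cover all 37 members, of which 1 is not reported here by itself. Promoters were matched by symbol to RefSeq (GRCm38.p6). The library names carry 55 different identifiers, but no label says that they stand for separate animals, so p-values measure the spread between these libraries. Depth was 35094442 to 51363637 counts per library, with a median of 42009365. No library pair looked like a duplicate (highest correlation 0.9955).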

Additional observations from a re-analysis of the deposited data

Results flagged for a closer look

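Of 76 groups of values checked for a single library far from the rest, 4 were found, where chance gives about 1 in 20. Q111 male 1 stood below the other Q111 libraries in the members' mean level, at 5.98 log2 CPM. The same library was lowest among the Q111 libraries for Ndufv2, at 94.3 CPM, and for Ndufa4, at 158.8 CPM. WT male 3 stood above the other WT libraries for Ndufa4l2, at 14.1 CPM.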

How the results depend on the processing

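The 31 and 35 members called in Q175 against WT and against Q20 were 3 and 10 with a length trend over the longest annotated transcript removed, 6 and 4 over the implied length, and 17 and 24 with its robust fit; the medians remained negative. The slope to Q175 was called in 0, 0 and 5 members in those fits, and in 16 and 17 on log2(FPKM + 0.1) and log2(FPKM + 1). For this slope the length fits called 0.578%, 0.355% and 1.94% of all genes and the FPKM scales 10.7% and 11.1%. With the L code of the library names as a factor, 9 members were called in Q175 against WT. FPKM values were not rescaled, and their median over all genes was 0.17 against WT and 0.20 against Q20 with the smaller pseudocount, so the members' -0.33 and -0.39 lie further below it. Between the sexes, 19 members were called on either FPKM scale, where 53.2% and 48.4% of all genes were called (10.3% and 9.76% lower). Without the libraries high in epididymis markers, 15 members and 34.7% of all genes were called. Voom called 3 members in Q111 and 21 in Q92 against Q20 (1.91% and 34.0% of all genes), and 3 in Q20 against WT (9.56%), where the single call was 0 with no filter, with the L code, with the replicate block, in each length fit and in females alone. Same-numbered libraries had deviations with a mean r of 0.03 over 351 pairs (-0.80 to 0.80), against -0.005 over 1053 pairs of different number. What the numbers stand for was not tested. The replicate block gave 32 and 35 calls in Q175 against WT and Q20. Without 1 library each, calls ranged from 21 to 30 in Q175 against WT, 33 to 35 against Q20, 20 to 34 for the slope, 0 to 3 in Q92, 0 to 1 in Q20 against WT and 31 to 33 between the sexes.

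Signs turned for members that were not called. Ndufa4l2 in Q175 against WT was 0.11 and 0.095 on the smaller and larger FPKM pseudocount, 0.076 with the L code, 0.027 in the robust length fit, 0.0056 without the epididymis-high libraries and 0.027 in females (-0.18 to 0.014 without 1 library); against Q20 it was 0.17, 0.15 and 0.058 on the FPKM scales and in the robust fit. Ndufb2 against WT was 0.12 on both FPKM scales and 0.058 in the robust fit. For the slope, Ndufa4l2 was 0.00099 with no filter, 0.12 and 0.11 on FPKM, 0.072 in the robust fit, 0.0062 without the 2 Q140 libraries and 0.0083 in females (-0.084 to 0.031 without 1 library). In Q20 against WT, on FPKM, Ndufv1 was -0.042, Ndufs1 -0.015 and Ndufa4l2 -0.061 and -0.050; in the robust fit Ndufv1 was -0.015 and Ndufa4l2 -0.031; with the replicate block Ndufv1 was -0.00060; in females Ndufv1 was -0.022. Ndufs1 was -0.0099 and -0.0038 in the length fits on annotated and implied length, Ndufa4 -0.14 on the implied length and Ndufs7 0.066 with the L code. Without 1 library these ran from -0.056 to 0.14 (Ndufa4l2), -0.034 to 0.099 (Ndufs1) and -0.034 to 0.064 (Ndufv1). In males against females, Ndufa4l2 was -0.15 and -0.12 and Ndufb8 -0.12 and -0.17 in those length fits, Ndufb8 -0.019 in the robust fit (-0.014 to 0.064 without 1 library), Ndufb11 0.021, Ndufb7 0.0075 and 0.0074 and Ndufv3 0.11 on FPKM, and Ndufv3 0.12 without the epididymis-high libraries. The cause was not tested for any of these.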
